A study of Mus musculus with 12 samples.

Results

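The B and plasma cell genes are 7 rows of the deposited expression table, chosen by their symbols: Cd79a, Cd79b, Cd22, Ms4a1, Pou2af1, Jchain and Mzb1, out of 21936 genes. They were measured by RNA sequencing in 12 libraries of mouse eyelid. The HF groups were male C57BL/6 mice fed 60 kcal% fat, sampled at 9h, 15h or 21h. The CTL groups were male C57BL/6 mice of matched age fed 10 kcal% fat, the standard diet, and sampled at those 3 times. All mice were 6 to 8 weeks old before a week of adaptation and the diets, and were kept under 12 h of light per day, with 2 libraries for each diet and time. The labels give 3 months of diet and the series text 4 months. Meibomian gland is the tissue given in the labels, while according to the series text both eyelids were removed whole. It is not given in the sources used here whether mice were pooled, and p-values cover the spread among libraries, which may be technical.

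B cells recognise antigen through the B cell receptor, a membrane immunoglobulin that signals through the CD79A and CD79B chains. After activation some become plasma cells, which lose most surface receptors and secrete antibody. In mucosa and glands around the eye, plasma cells secrete IgA that the J chain joins into dimers, and epithelium carries these to the surface through the polymeric immunoglobulin receptor. B cells also gather in lymphoid tissue of the conjunctiva. Cd79a, Cd79b, Cd22 and Ms4a1 are taken here as genes of B cells, Jchain and Mzb1 as genes of antibody-secreting cells, and Pou2af1 as a gene of both. They are not confined to these cells, and plasmacytoid dendritic cells share some of them.

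The promoters of Cd79a and Jchain are printed because these genes stand for the receptor and the secretory side of the set. They are from RefSeq on GRCm38.p6, 250 bases before to 50 bases after the gene start, 5′ to 3′ on the gene's strand. Capitals mark CAAGGGAAT, the letters of the site known in the mouse Cd79a promoter for early B cell factor, a transcription factor that commits cells to the B lineage.
Cd79a, chr7:24897247-24897546, plus strand: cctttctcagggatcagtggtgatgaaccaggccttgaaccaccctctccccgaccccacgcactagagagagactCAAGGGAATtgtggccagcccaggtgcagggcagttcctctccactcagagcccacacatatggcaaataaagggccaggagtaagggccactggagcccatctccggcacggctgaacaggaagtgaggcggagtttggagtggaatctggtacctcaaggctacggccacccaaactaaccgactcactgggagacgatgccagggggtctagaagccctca
Jchain, chr5:88527848-88528147, minus strand: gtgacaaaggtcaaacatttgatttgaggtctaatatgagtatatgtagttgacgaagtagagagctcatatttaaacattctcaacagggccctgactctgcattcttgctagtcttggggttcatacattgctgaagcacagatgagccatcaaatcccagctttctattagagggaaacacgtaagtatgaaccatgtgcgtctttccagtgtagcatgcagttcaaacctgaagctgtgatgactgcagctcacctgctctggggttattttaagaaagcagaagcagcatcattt

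The site begins 174 bases before the RefSeq start of Cd79a, which lies downstream of the GENCODE start given with its levels, so that its distance from that start is shorter. Its letters, searched on both strands, were found in 0.244% of 32851 RefSeq promoters of this length, and among the 4 members with a promoter in the table (Cd79a, Cd22, Pou2af1 and Jchain) in Cd79a alone. The octamer ATGCAAAT, bound by the POU factors that Pou2af1 assists, was found in 1.74% of all promoters and in none of these 4 windows. A match or its absence describes the letters of the window only.

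Levels are given as FPKM, fragments per kilobase of exon scaled to sequencing depth. The depth recovered from the steps between values was 14096363 to 17889166 reads per library, and a single read spread over 2 kb of exon then adds 0.02795 to 0.03547 FPKM. Counting error alone is therefore large for members below 1 FPKM. The 10 meibocyte and sebocyte markers were all above the filter and summed to 6913 to 10850 FPKM in HF libraries and 6405 to 9258 FPKM in CTL libraries. Their log2 differences averaged over times, HF minus CTL, were below 0 for 0 of the 10, with a median of 0.23. Soat1 was called higher in HF libraries (0.42 ± 0.08, limma adjusted p = 0.0409). Of all genes tested, 1.98% were called in either direction and 52% were below 0. Skeletal muscle and conjunctival markers were also abundant, summing to 2196 to 6006 FPKM and 1364 to 2255 FPKM in HF libraries, against 2450 to 5718 FPKM and 1318 to 1945 FPKM in CTL libraries. None of the 12 immunoglobulin constant genes sought is a row of the table, so antibody transcripts were not analysed here. In whole tissue, fewer cells of a type and less RNA per cell cannot be told apart.

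Only Jchain was abundant. It averaged 58 FPKM over the 12 libraries, while Cd79b averaged 1.31, Cd79a 1.15, Pou2af1 0.839, Cd22 0.675, Mzb1 0.12 and Ms4a1 0.0946 FPKM. A filter kept 13228 genes, those with 2 or more libraries above 1 FPKM, for tests on log2(FPKM + 1), and 5 members passed it. Jchain was above 1 FPKM in all 12 libraries. Cd79b passed it through 5 CTL libraries and no HF library, and Cd22 through 2 CTL libraries and no HF library. Cd79a and Pou2af1 were each above 1 FPKM in 1 HF library and 3 CTL libraries. Ms4a1 and Mzb1 were below 1 FPKM in every library and were not tested by limma.

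**Figure D1:**
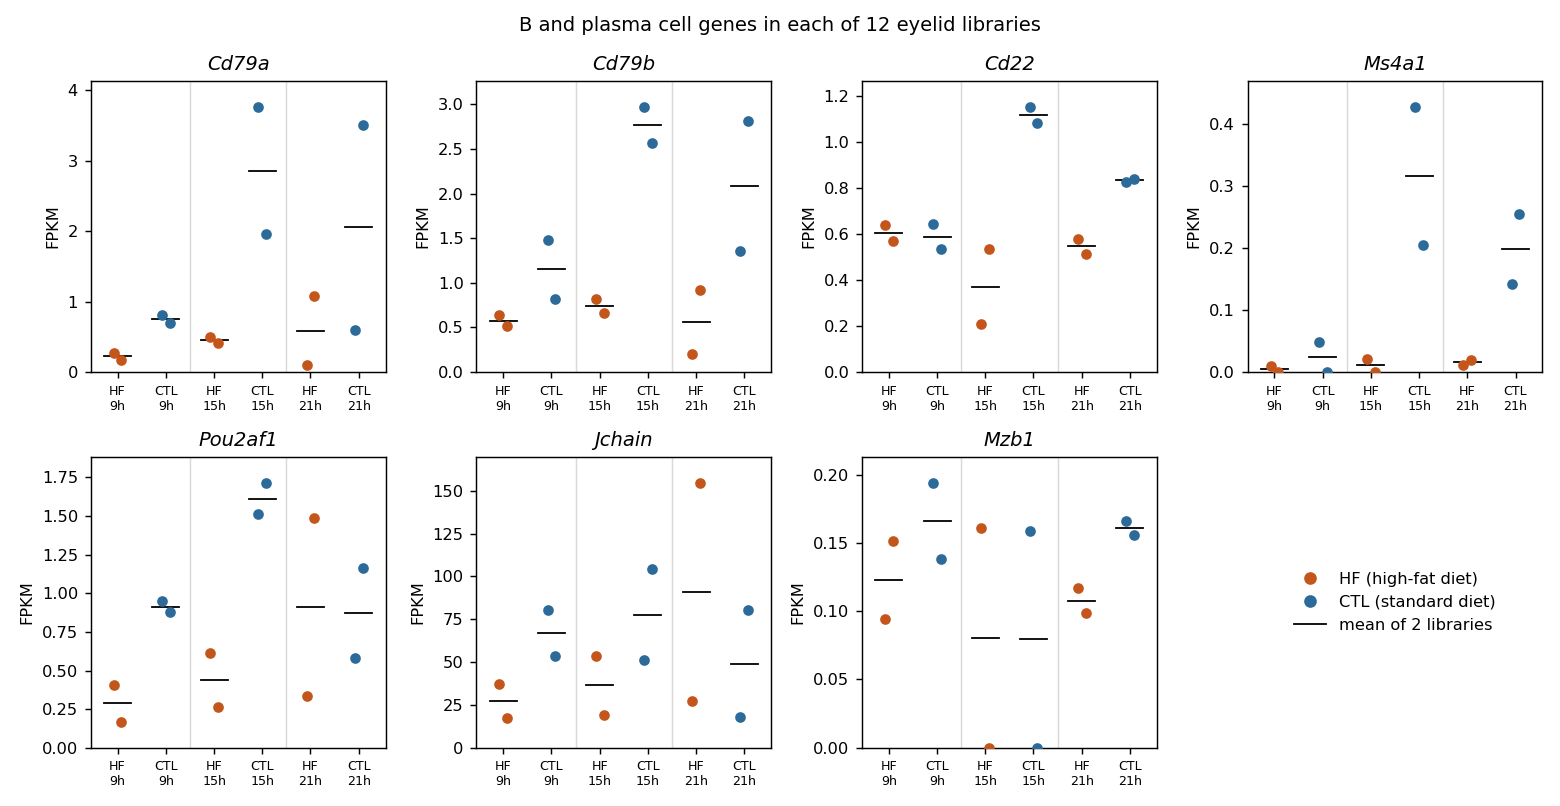
FPKM of the 7 genes (a panel each, vertical axis) in the 12 libraries, grouped by time with HF left of CTL. Points are libraries and lines are means of 2. Cd79b is lower in both HF libraries than in both CTL libraries at each time, and Jchain reaches 154 FPKM in 1 HF library at 21h.

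Cd79b, through which the B cell receptor signals, was lower on average in HF than in CTL libraries. It was the 1 member called for diet averaged over the 3 times, and most alternative fits lost the call. Cd79b (ENSMUSG00000040592, GRCm38 chromosome 11, 106311341 to 106314762, minus strand) was at 0.641 and 0.513 FPKM in HF libraries and 1.48 and 0.82 FPKM in CTL libraries at 9h. At 15h it was at 0.821 and 0.657 FPKM in HF libraries and 2.97 and 2.56 FPKM in CTL libraries. At 21h it was at 0.198 and 0.925 FPKM in HF libraries and 1.36 and 2.82 FPKM in CTL libraries. Both HF libraries were thus below both CTL libraries at every time, in Cd79b alone among the members, and 3.54% of the genes tested showed the same. Its mean was 0.626 ± 0.254 FPKM in HF libraries and 2 ± 0.893 FPKM in CTL libraries (SD, n = 6 each), a log2 difference of -0.84 ± 0.16 (SE, limma adjusted p = 0.0313). The 1 member called lower among 5 tested stands beside 1.78% of all genes called lower in this comparison (1.98% in either direction). Cd79b entered the test only through CTL libraries, the group where it was higher, and the call was lost without the filter (adjusted p = 0.0562). At an unadjusted limma p under 0.05, 4 of the 5 were lower (all but Jchain), and 9.4% of all genes were. Since these 4 passed the filter wholly or mainly through CTL libraries, nothing is read from that count. The call held without CTL_9h replicate 3, HF_21h replicate 6 or CTL_21h replicate 1 and was lost without any other single library (adjusted p from 0.0545 to 0.115, the highest without CTL_9h replicate 2), and when 15h was left out (-0.71, adjusted p = 0.323). It was also lost with a pseudocount of 0.1 (-1.51, adjusted p = 0.0538), by limma-voom on recovered reads (-1.62, adjusted p = 0.063) and with a replicate block (-1.05, adjusted p = 0.201).

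Cd79a, which pairs with Cd79b, had a negative diet difference of similar size with a wider spread, and was not called. Cd79a (ENSMUSG00000003379, chromosome 7, 24897381 to 24902197, plus strand) was at 0.276 and 0.168 FPKM in HF libraries and 0.808 and 0.691 FPKM in CTL libraries at 9h. At 15h it was at 0.493 and 0.415 FPKM in HF libraries and 3.75 and 1.95 FPKM in CTL libraries. At 21h the groups overlapped, with 0.0974 and 1.07 FPKM in HF libraries and 0.599 and 3.5 FPKM in CTL libraries. The log2 difference averaged over times was -0.91 ± 0.26 and was not called (limma adjusted p = 0.151). It was called without CTL_21h replicate 1 (-1.15, adjusted p = 0.0274). These values rest on few reads: all 6 HF libraries together held 59 reads of Cd79a and the 6 CTL libraries 262.

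Ms4a1, which encodes the B cell surface protein CD20, had at most 5 reads outside 4 CTL libraries. Ms4a1 (ENSMUSG00000024673, chromosome 19, 11249675 to 11266241, minus strand) had 1 and 0 reads in HF libraries at 9h, 2 and 0 at 15h, and 1 and 2 at 21h. The CTL libraries had 5 and 0 reads at 9h, 41 and 20 at 15h, and 13 and 25 at 21h. The groups overlapped at 9h and were apart at 15h and 21h, with 6 reads in all HF libraries against 104 in all CTL libraries. Its mean was 0.0102 ± 0.00911 FPKM in HF libraries and 0.179 ± 0.154 FPKM in CTL libraries (SD, n = 6 each).

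Cd22, an inhibitory receptor of B cells that binds sialic acid, had fitted diet differences of 0.02 at 9h, -0.64 at 15h and -0.25 at 21h on the log2 scale. Cd22 (ENSMUSG00000030577, chromosome 7, 30865402 to 30880342, minus strand) was at 0.637 and 0.571 FPKM in HF libraries and 0.642 and 0.532 FPKM in CTL libraries at 9h, where the groups overlapped. At 15h it was at 0.207 and 0.532 FPKM in HF libraries and 1.15 and 1.08 FPKM in CTL libraries. At 21h it was at 0.577 and 0.513 FPKM in HF libraries and 0.826 and 0.837 FPKM in CTL libraries. Each of these differences had an SE of 0.14, and the difference averaged over times was -0.29 ± 0.08, not called (limma adjusted p = 0.148). For Cd22 the interaction F test had an unadjusted limma p of 0.03 and an adjusted p of 0.999, so a diet difference that varied with time was not shown. Of its 5042 exon bases, 479 are shared with Gm29439 on the other strand, and the strand setting of the counting is not given in the sources used here.

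Pou2af1, a coactivator of octamer-binding factors needed for germinal centres, was below its CTL levels in both HF libraries at 9h and 15h and was highest among HF libraries in HF_21h replicate 6, as were Cd79a, Cd79b and Jchain. Pou2af1 (ENSMUSG00000032053, chromosome 9, 51213708 to 51240080, plus strand) was at 0.405 and 0.168 FPKM in HF libraries and 0.947 and 0.877 FPKM in CTL libraries at 9h. At 15h it was at 0.614 and 0.263 FPKM in HF libraries and 1.51 and 1.71 FPKM in CTL libraries. At 21h it was at 0.334 and 1.49 FPKM in HF libraries and 0.58 and 1.16 FPKM in CTL libraries. The groups were apart at 9h and 15h and overlapped at 21h, and the averaged log2 difference of -0.49 ± 0.16 was not called (limma adjusted p = 0.212).

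Jchain, the joining chain of dimeric IgA and pentameric IgM, was not called for diet, and libraries of the same diet and time lay far apart. Jchain (ENSMUSG00000067149, chromosome 5, 88519809 to 88527891, minus strand) was at 37.5 and 17.2 FPKM in HF libraries and 80.1 and 53.6 FPKM in CTL libraries at 9h. At 15h it was at 53.8 and 19.2 FPKM in HF libraries and 51.1 and 104 FPKM in CTL libraries. At 21h it was at 27.1 and 154 FPKM in HF libraries and 17.9 and 80.2 FPKM in CTL libraries. The groups were apart at 9h and overlapped at 15h and 21h, and libraries of 1 group at 21h differed by more than the diets did. The mean was 51.5 ± 52.2 FPKM in HF libraries and 64.5 ± 30.1 FPKM in CTL libraries (SD, n = 6 each), with a log2 difference of -0.58 ± 0.52 (limma adjusted p = 0.673). Without HF_21h replicate 6 the difference was -0.99 and without HF_21h replicate 3 it was -0.17, neither called. With 672 to 6463 reads per library, counting error is small for Jchain and the spread lies between libraries.

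Mzb1, a chaperone of the endoplasmic reticulum that assists antibody assembly, had 0 to 4 reads per library. Mzb1 (ENSMUSG00000024353, chromosome 18, 35647267 to 35649367, minus strand) was at 0.104 ± 0.0576 FPKM in HF libraries and 0.135 ± 0.0688 FPKM in CTL libraries (SD, n = 6 each), and no diet difference was detectable at this depth. Of its 1215 exon bases, 695 lie in exons annotated on the same strand to a gene named SPATA24. How the counting treated reads that fall in 2 genes is not given in the sources used here, so the level of Mzb1 is uncertain and is not compared with that of Jchain.

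At single times no member was called, against 0% of all genes at 9h, 0.0605% at 15h and 0.00756% at 21h. At an unadjusted limma p under 0.05, 0 of 5 members tested were lower at 9h, 4 at 15h (Cd79a, Cd79b, Cd22 and Pou2af1) and 1 at 21h (Cd79b). The share of all genes lower at that threshold was 4.36% at 9h, 8.35% at 15h and 3.85% at 21h. Of the 5 members tested, both HF libraries were below both CTL libraries for 4 at 9h, 4 at 15h and 2 at 21h, against 14.8%, 26.7% and 22.2% of all genes. At 15h the log2 differences were -1.37 ± 0.45 for Cd79a, -1.11 ± 0.28 for Cd79b, -0.87 ± 0.28 for Pou2af1 and -1.15 ± 0.91 for Jchain. At 21h they were -0.83 ± 0.45 for Cd79a, -0.98 ± 0.28 for Cd79b, -0.02 ± 0.28 for Pou2af1 and 0.75 ± 0.91 for Jchain. Because 4 of the 5 passed the filter mainly through CTL libraries, these counts describe the members and do not measure how often such genes fall.

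**Figure D2:**
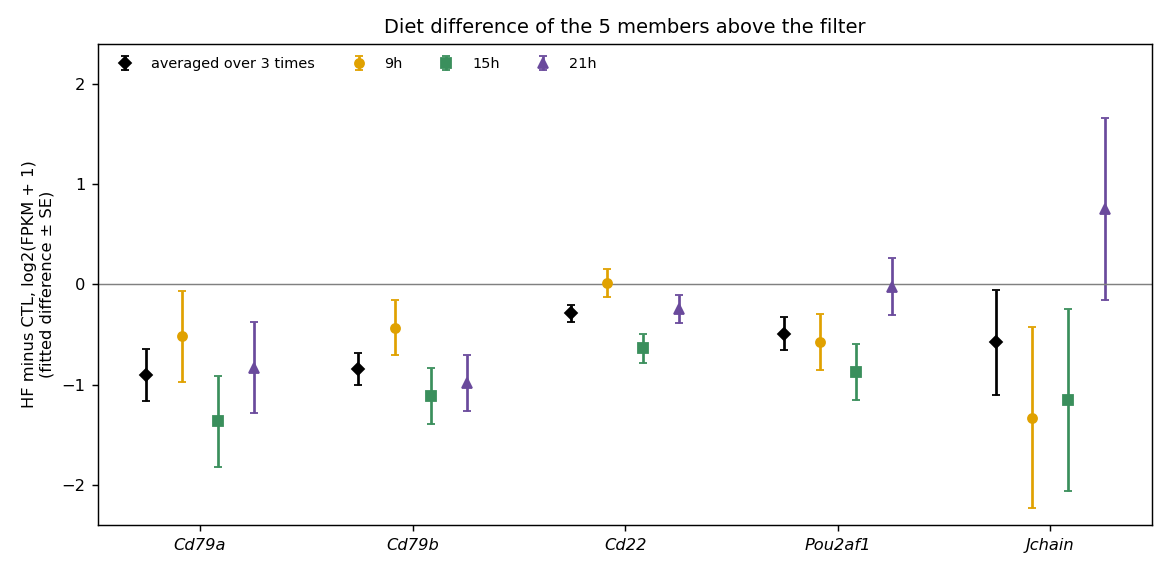
Fitted HF minus CTL difference in log2(FPKM + 1) with its SE (vertical axis) for the 5 members above the filter (horizontal axis), averaged over times and at 9h, 15h and 21h. The averaged differences run from -0.91 for Cd79a to -0.29 for Cd22, and Jchain at 21h has a positive value of 0.75 with an SE of 0.91.

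A second test used each gene alone, permuting the diet labels within each time over log2(FPKM + 1). It can give no p below 0.00926, and Cd79b reached that value (2-sided exact permutation, 6 libraries against 6). Both HF libraries of Cd79b were below both CTL libraries at every time, which by itself gives that value. It therefore adds no separate support. The exact permutation p was 0.0185 for Cd79a, 0.0278 for Ms4a1 and 0.037 for Cd22. It was 0.0556 for Pou2af1, 0.398 for Jchain and 0.389 for Mzb1. These are unadjusted p-values over 7 genes, and the counts of reads for Ms4a1 are low. The test was run on the members alone, so no share of all genes stands beside them and nothing is read from their number.

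Sampling time had no called effect on any member. The F test of time within HF mice gave unadjusted limma p-values of 0.232 to 0.778 over the 5 members tested, and 0 genes of the table were called, with 8.73% of all genes at an unadjusted p under 0.05. Within CTL mice 0 members and 0.0227% of all genes were called, and Cd79b was the member with an unadjusted p under 0.05 (0.0433, adjusted p = 0.261), where 18.3% of all genes were. Cd79b averaged 1.15 ± 0.467, 2.77 ± 0.284 and 2.09 ± 1.03 FPKM at 9h, 15h and 21h in CTL mice (SD, n = 2 each), and Ms4a1 averaged 0.0238, 0.315 and 0.198 FPKM. In HF mice the averages of Cd79b were 0.577 ± 0.0904, 0.739 ± 0.116 and 0.561 ± 0.514 FPKM at the same times. With both diets together 1.46% of genes were called for time and 0 members, and 23.6% of genes and 0 members had an unadjusted p under 0.05. The interaction of diet and time called 0 genes, with 3.06% of genes and 1 member (Cd22) at an unadjusted p under 0.05.

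The same 3 CTL libraries ranked highest for 4 of the 7 members. CTL_15h replicate 2, CTL_15h replicate 3 and CTL_21h replicate 2 were the 3 highest libraries for Cd79a, Cd79b, Cd22 and Ms4a1. These are ranks, and the step can be small. Cd22 was at 0.837 FPKM in CTL_21h replicate 2 and 0.826 FPKM in CTL_21h replicate 1. In the wider B cell list the same 3 libraries were highest for 6 of 28 genes and not for the others. The 3 libraries were first taken from 1 of the 6, a gene not reported here, so its place was fixed in advance. The share of all genes with these 3 libraries highest was not computed. The 6 include Pax5, the factor that maintains B cell identity, Cr2, a complement receptor, Cxcr5, the receptor that guides B cells to follicles, Tnfrsf13c, the BAFF receptor, and Blnk, an adaptor below the receptor. These genes were picked after their values were seen. Cr2 had 51, 13 and 21 reads in those libraries, in the order named, and 0 to 7 reads in each of the other 9, and Pax5 had 48, 7 and 25 reads there and 1 to 5 elsewhere. Blnk was at 4.8 FPKM in CTL_15h replicate 3 and 4.78 FPKM in CTL_9h replicate 2, so its rank rests on a small step. The summed level of the 5 general leukocyte genes in the 3 libraries named first was 88.8, 120 and 87.7 FPKM, within the range of 78.5 to 153 FPKM of all CTL libraries. Of the 5, Ptprc was highest in CTL_15h replicate 3 (5.96 FPKM), and Coro1a, Laptm5, Cd52 and Cd53 were highest in CTL_9h replicate 2. What set the 3 libraries apart was not tested.

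**Figure D3:**
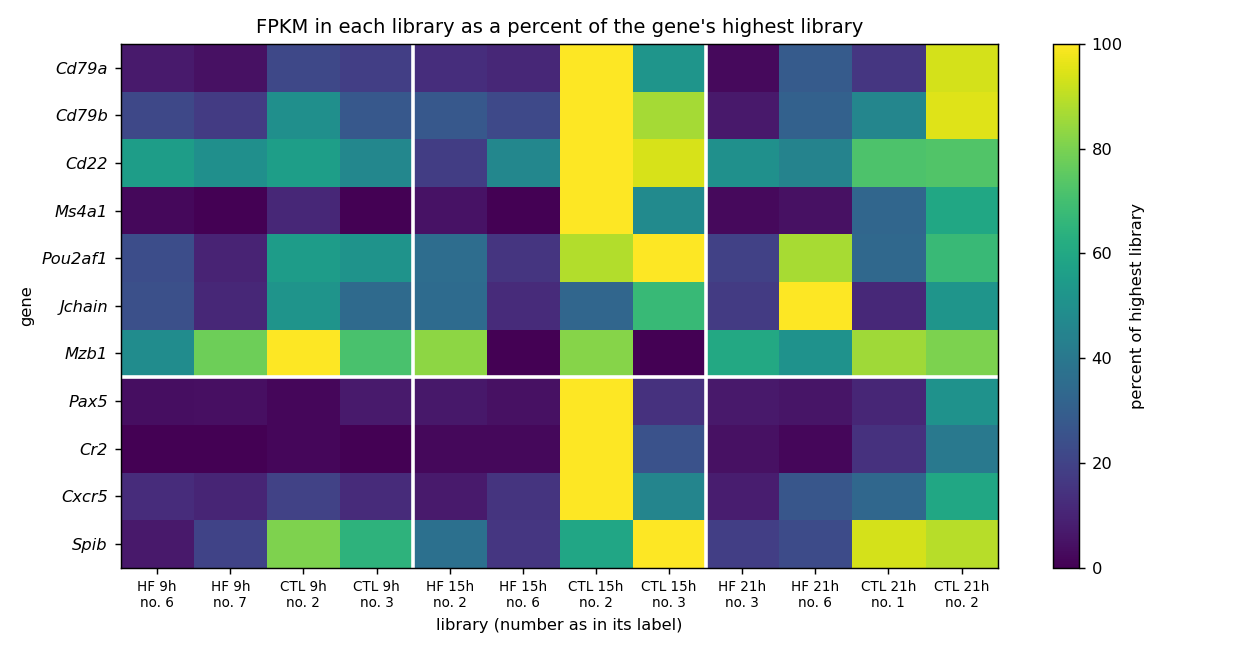
Heat map of FPKM in each library (columns, HF left of CTL at each time) as a percent of the gene's highest library, for the 7 members (upper rows) and 4 further genes chosen after their values were seen (lower rows). CTL_15h replicate 2 is the brightest column for Cd79a, Cd79b, Cd22, Ms4a1, Pax5, Cr2 and Cxcr5, and HF_21h replicate 6 for Jchain.

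Members varied together to different degrees over the 12 libraries, and 10 of 21 pairs had a Pearson correlation with an adjusted permutation p under 0.05 (adjusted over the 21 pairs). The permutations moved libraries across diets and times, so genes that were merely both lower in HF libraries could pass. No share over other gene pairs was computed, and the count is a description only. Cd79a and Cd79b had r = 0.94 (permutation adjusted p = 0.00021) and Spearman rho = 0.951 (permutation adjusted p = 0.00042). Their r was 0.901 without the 2 libraries farthest from the median of Cd79a, and 0.841 within HF and 0.921 within CTL libraries. Pou2af1 and Jchain had r = 0.856 (permutation adjusted p = 0.00273) and rho = 0.832 (permutation adjusted p = 0.00647), with 0.796 without the 2 farthest, 0.987 within HF and 0.732 within CTL libraries. Cd79b and Jchain had r = 0.498 (permutation adjusted p = 0.165) and rho = 0.573 (permutation adjusted p = 0.108), with 0.515 without the 2 farthest, 0.625 within HF and 0.403 within CTL libraries. Ms4a1 and Jchain had r = 0.252 (permutation adjusted p = 0.654) and rho = 0.458 (permutation adjusted p = 0.223), with 0.223 without the 2 farthest, 0.846 within HF and 0.0508 within CTL libraries. Cd22 and Cd79b had r = 0.735 (permutation adjusted p = 0.0134) and rho = 0.622 (permutation adjusted p = 0.0725), with 0.601 without the 2 farthest. Their r was -0.444 within HF and 0.861 within CTL libraries, a difference that was not tested. The members share each library's depth and tissue makeup, and no pair with Mzb1 passed.

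**Figure D4:**
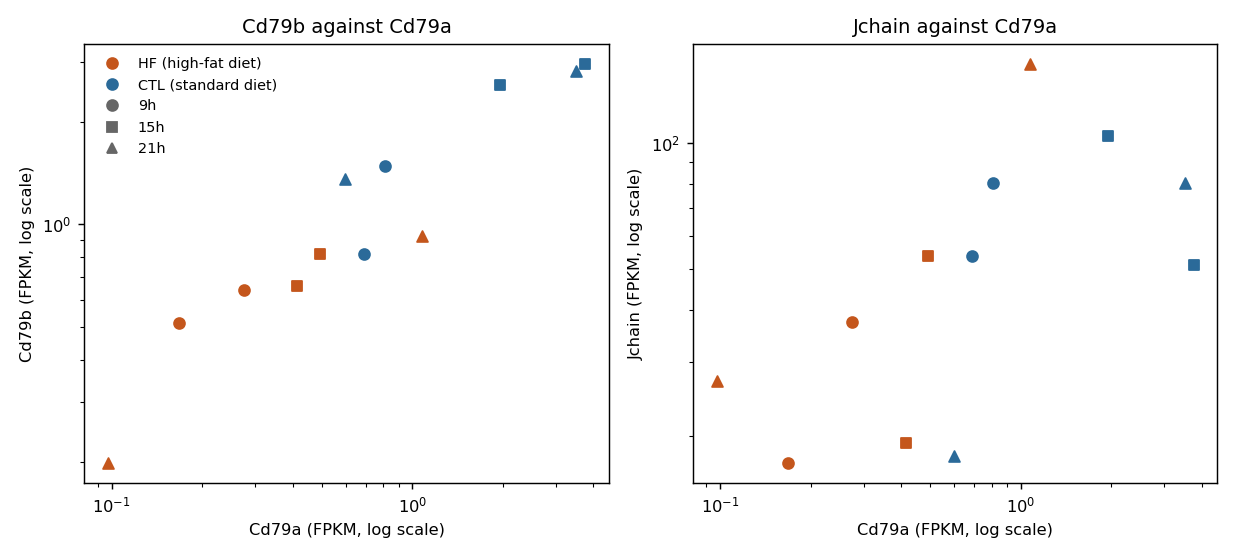
Cd79b (left) and Jchain (right) against Cd79a, in FPKM on log axes, with 1 point per library, colour for diet and shape for time. Cd79b follows Cd79a over both diets (r = 0.94 on log2(FPKM + 1)), while the highest Jchain point, 154 FPKM, is an HF library with 1.07 FPKM of Cd79a.

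The genes most like each member were taken as the 3 with the highest Pearson r on log2(FPKM + 1) over the 12 libraries, as a description. For Cd79a these include H2-Ob, a chain of the MHC class II modulator H2-O of B cells (0.891), and Blnk (0.874). For Cd79b they were Blnk (0.943), Ifi213, an interferon-inducible gene of the p200 family (0.925), and Phf11b (0.92). For Cd22 they were Sfrp2, a secreted Wnt modulator of fibroblasts (0.953), Olfml3, a secreted matrix protein (0.9), and Car9, a carbonic anhydrase (0.884), none of which is a B cell gene. For Pou2af1 they were Cmas, which activates sialic acid (0.903), Ifi202b, also of the p200 family (0.866), and Calml3, a calmodulin-like protein of epithelium (0.855). For Jchain they were Morn4 (0.826), Tnfrsf22 (0.819) and Cmas (0.815).

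In the wider B cell list, 1 gene fell and 18 others tested were not called, where 1.78% of all genes tested were called lower. Of 28 genes 19 passed the filter, 16 had a value below 0, and the median log2 difference was -0.25, beside -0.01 for all genes tested, of which 52% were below 0. Spib, an ETS factor of B cells and plasmacytoid dendritic cells, fell by 0.76 ± 0.10 on the log2 scale (limma adjusted p = 0.00547). It was at 0.298 ± 0.146 FPKM in HF libraries and 1.2 ± 0.241 FPKM in CTL libraries (SD, n = 6 each), and each HF library was below each CTL library, as were 1.86% of all genes tested and no member. No HF library was above 1 FPKM, so Spib passed the filter only through CTL libraries. Genes such as Fcrla (at most 0.732 FPKM in HF libraries) passed in the same way. Ccr6 passed only through HF libraries (at most 0.9 FPKM in CTL libraries). The count below 0 and the median depend in part on the filter and describe the list only. Cd72, an inhibitory coreceptor, had -0.44 ± 0.13 and Blnk -0.25 ± 0.07, neither called, each with a limma adjusted p of 0.148. Blk, a SRC-family kinase of the receptor that was chosen after its values were seen, had a positive value of 0.39 ± 0.14, not called, at 4.08 ± 0.972 FPKM in HF libraries and 2.87 ± 0.768 FPKM in CTL libraries (SD, n = 6 each).

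Among genes of plasma cell differentiation and antibody secretion, 1 of 20 tested fell, 14 had values below 0, and the median was -0.06. Of all genes tested, 1.78% were called lower. Slamf7, a receptor of plasma cells that other lymphocytes also carry, was at 1.78 ± 0.448 FPKM in HF libraries and 3.24 ± 0.708 FPKM in CTL libraries (SD, n = 6 each), and fell by 0.61 ± 0.12 on the log2 scale (limma adjusted p = 0.0323). Tnfrsf13b, the TACI receptor, had -0.39 ± 0.11, Creld2, a chaperone of the endoplasmic reticulum, -0.14 ± 0.06, and Xbp1, the factor that expands the secretory apparatus, -0.16 ± 0.07, none called. Xbp1 was at 66 ± 2.69 FPKM in HF libraries and 74 ± 7.61 FPKM in CTL libraries, and Sdc1, the plasma cell marker CD138 that epithelium also expresses, at 233 ± 13.4 FPKM in HF libraries and 219 ± 12.2 FPKM in CTL libraries (SD, n = 6 each). Pigr, the epithelial carrier of dimeric IgA, had a value of -0.53 ± 0.32 and was not called. Sdc1 and Pigr were chosen after their values were seen.

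Among niche, survival and homing factors, 1 of 13 tested fell, beside 1.78% of all genes tested, 9 had values below 0, and the median was -0.27. Cd40, the receptor through which T cells help B cells, was at 0.466 ± 0.152 FPKM in HF libraries and 1.38 ± 0.452 FPKM in CTL libraries (SD, n = 6 each), and fell by 0.68 ± 0.13 on the log2 scale (limma adjusted p = 0.0334). Cd40 too passed the filter only through CTL libraries, as did Lta, while Il6 passed only through HF libraries. The count below 0 and the median of this list therefore also depend in part on the filter. Ltb, a lymphotoxin chain needed for lymphoid tissue, had -0.77 ± 0.17, Cxcl12, a chemokine that retains plasma cells, -0.33 ± 0.11, and Madcam1, an addressin of mucosal vessels, 0.36 ± 0.13, none called. Cxcl13, the follicular chemokine that binds Cxcr5, was chosen after its values were seen and had -0.70 ± 0.48 (limma adjusted p = 0.563). Ccl19 and Ccl21a stand on more than 1 row of the table and were left out.

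Lists of other immune cells also held genes that fell, in numbers that differed between lists, beside 1.78% of all genes tested that were called lower. All 5 general leukocyte genes had values below 0, with a median of -0.58, and Cd52, a surface protein of lymphocytes, was called lower. They summed to 37.2 to 72.6 FPKM in HF libraries and 78.5 to 153 FPKM in CTL libraries, which did not overlap. In the T cell list 6 of 12 tested fell and 12 had values below 0, with sums of 13.2 to 20.5 FPKM in HF libraries and 25.8 to 49.6 FPKM in CTL libraries. Cd5, 1 of these 6, was at most 0.885 FPKM in HF libraries and passed the filter only through CTL libraries. In the macrophage list 0 of 10 were called, 10 were below 0, and sums were 162.7 to 402.9 FPKM in HF libraries and 337 to 533.9 FPKM in CTL libraries. All 11 interferon response genes tested fell, with sums of 50.8 to 134 FPKM in HF libraries and 319.1 to 604.1 FPKM in CTL libraries. Of 6 plasmacytoid dendritic cell genes tested 2 fell, Bst2 and Irf8, which are also interferon-induced. In this list 5 of the 6 had values below 0, with a median of -0.59. The defining marker Siglech was under the filter and was not tested by limma. It was at 0.321 ± 0.228 FPKM in HF libraries and 0.366 ± 0.109 FPKM in CTL libraries (SD, n = 6 each). The part of plasmacytoid dendritic cells in the differences of Cd79b and the other members was not tested. Of the 7 acinar genes tested from the lacrimal and salivary list none was called, and its sums were 57.8 to 88.2 FPKM in HF libraries and 72.1 to 158 FPKM in CTL libraries.

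**Figure D5:**
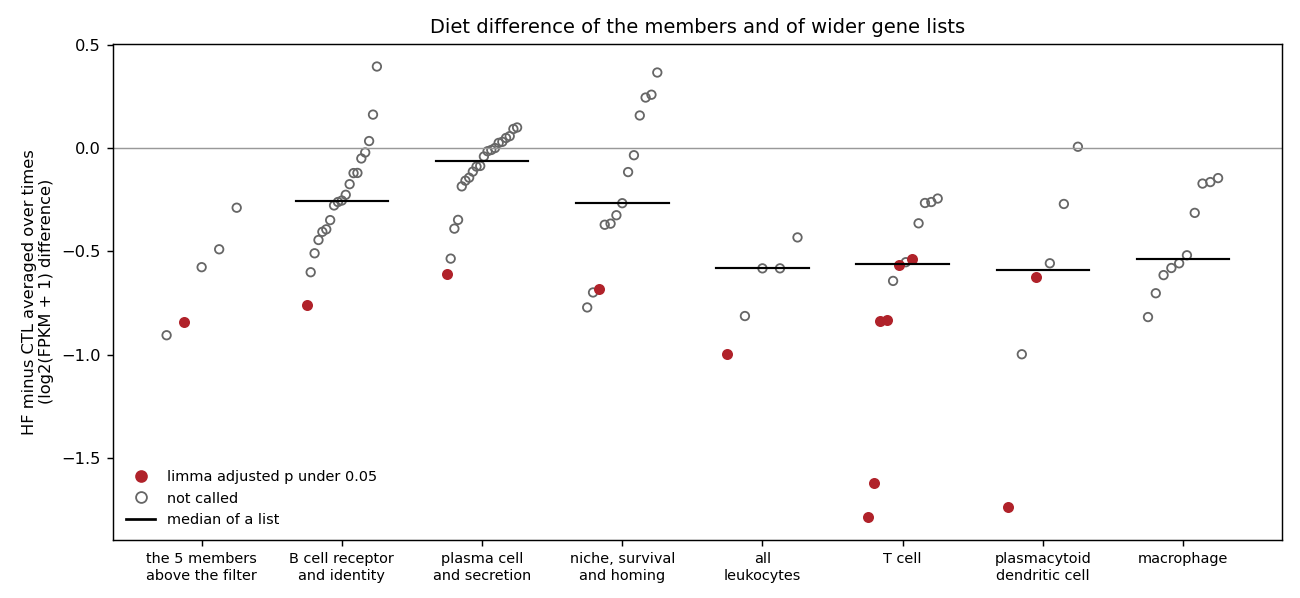
HF minus CTL difference averaged over times in log2(FPKM + 1) (vertical axis) for the members and for the tested genes of 7 wider lists (horizontal axis). Filled points are genes with a limma adjusted p under 0.05 and bars are medians of a list (none is drawn for the members). The median is -0.25 for the B cell list, -0.06 for the plasma cell list and -0.56 for the T cell list.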

How the data were processed

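The deposited table holds FPKM values that the authors computed from eyelid RNA-seq libraries. Libraries were made from Trizol RNA with an NEB kit, per the labels' protocols. HISAT2 2.0.5, HTSeq 0.9.1, DESeq 1.30.0 and build mm9 are named per the submitters' processing notes, while the strand setting, annotation and step to FPKM were not stated. Of 21936 gene IDs, 21894 are in GENCODE mouse release M21 (GRCm38), whose merged exon lengths turn 98.1% to 98.3% of nonzero values under 1000 reads into whole reads within 0.02 reads. Coordinates are from that annotation.

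limma 3.58.1 (R 4.3.3, mean-dependent prior) was fitted to log2(FPKM + 1) with 1 mean per group and 6 residual degrees of freedom, over 13228 genes above 1 FPKM in at least 2 libraries, with Benjamini-Hochberg adjustment over all of them and 0.05 as the threshold. Differences on this scale understate changes of low genes. Correlations used 100000 permutations of all 12 libraries, without regard to diet or time. Named were all members, their 3 most correlated genes, and from each B or plasma cell list the called genes and otherwise up to 4 with the smallest p, except 1 gene that is not reported here. Genes of the B and plasma cell lists named outside this rule are marked as chosen after their values were seen. Genes named from the lists of other cells do not follow this rule and carry no such mark. Members and lists were chosen with earlier results of these data known. The spread between libraries includes counting error. Alternatives are given in the closing section.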

Additional observations from a re-analysis of the deposited data

Results flagged for a closer look

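Within each diet the 6 libraries of the 3 times were examined for a single library far from the others (14 groups of 6 in all, 7 genes in each of both diets), by the gap to the next library as a share of the whole range, against a critical value of 0.625. That value is set to flag about 5% of groups of 6 independent normal values, which FPKM over 3 times need not be. Members also vary together, so the 4 flags found are not compared with that share. Jchain reached 154 FPKM in HF_21h replicate 6, where the next HF library was at 53.8 FPKM (share 0.733). Pou2af1 was highest in the same library, at 1.49 FPKM with the next at 0.614 FPKM (share 0.661). Cd22 was lowest in HF_15h replicate 2, at 0.207 FPKM with the next HF library at 0.513 FPKM (share 0.711). Mzb1 was listed at 0 FPKM in CTL_15h replicate 3, with the next CTL library at 0.138 FPKM (share 0.712). That step is 3 reads wide.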

How the results depend on the processing

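The number of members called for diet averaged over times was 1 with FPKM rescaled by median ratios, and 0 with a pseudocount of 0.1, without a filter on low values, by limma-voom on recovered reads, with 15h left out (chosen after seeing the data) and with a replicate block. The adjusted p of Cd79b was 0.0538, 0.0562, 0.063, 0.323 and 0.201 in these 5 fits, with log2 differences of -1.51, -0.84, -1.62, -0.71 and -1.05, against -0.84 as reported. Leaving out 1 library gave 0 to 2 called members, and 3 to 5 with an exact permutation p under 0.05 where all libraries gave 4. For the other comparisons 0 members were called under every alternative run. Among uncalled values, the replicate block turned Cd22 at 9h to -0.10 and Jchain at 21h to -0.10. Over fits without 1 library, Cd22 at 9h ran from -0.0345 to 0.0656, Jchain at 21h from -0.48 to 1.99 and Pou2af1 at 21h from -0.47 to 0.43. Over all genes, the count called for diet averaged over times was 262, with 132 when 15h was left out, 0 in the replicate block and 143 to 293 without 1 library. For time over both diets it was 193, with 126 at the pseudocount of 0.1, 7 without a filter, 0 in the replicate block and 1 to 2509 without 1 library. At 15h it was 8, with 0 to 2 in those fits and by limma-voom, and 0 to 72 without 1 library. With only the compared groups fitted, 55 genes were called at 9h and 751 for time within CTL, where all groups together gave 0 and 3. Without 1 library, the counts reached 155 at 9h, 27 at 21h, 63 for time within HF and 839 for time within CTL. Whether the numbers in the labels pair the libraries is not known. Deviations of same-numbered libraries from their group means had r of -0.502 to 0.289. With 2 libraries per group each deviation mirrors that of its partner, so these values cannot decide it. The replicate block leaves 2 residual degrees of freedom. Depth limits Ms4a1 and Mzb1, at 0 to 41 and 0 to 4 reads per library.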
